A study of Mus musculus with 199 samples.

Results

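The genes described here code for the liver's conjugating enzymes: soluble glutathione S-transferases (classes alpha, kappa, mu, omega, pi and theta), microsomal glutathione S-transferases (Mgst), UDP-glucuronosyltransferases of families 1 and 2 (Ugt1 and Ugt2) and cytosolic sulfotransferases (Sult1 to Sult5). They were chosen by a rule on gene symbols that uses no measured value. The rule was set with earlier results of these data known. Of 37713 genes in the deposited count table, 65 matched, 4 of these were Sult2a pseudogenes and were left out, and 61 remained. The low-count filter passed 47 of the 61, and tests cover these 47 only. Sult1c1 had no count in any tissue library. The other 13 untested genes had few counts: Gsto2, Gstt4, Mgst2, Sult2a1, Sult2a3, Sult2a4, Sult2a5, Sult2a6, Sult3a2, Ugt1a2, Ugt1a8, Ugt1a10 and Ugt2a2.

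RNA was measured in bulk from male wild-type C57BL/6 mice of an in-house colony, in a model called DEN ALIOS. In it a carcinogen (diethylnitrosamine) is combined with a diet high in fat and sugar, and liver tumours arise in fatty, inflamed liver. Sequenced were 15 liver tissue libraries and, for the tumours, 25 libraries labelled small and 25 labelled large, all named DEN ALIOS in their titles. For the liver tissue a second label reads Normal and the protocol speaks of healthy tissue, so whether it came from tumour-bearing mice is not settled by the labels. Ages, animals and tumour diameters are not given in the labels. Tumours may therefore share a mouse, and p-values measure the spread between libraries only. Gene counts per library ran from 12055434 to 21850190 (median 15178619). The names of the libraries fall into 3 sets by their prefix, and the labels do not say what the sets stand for. Each set held all 3 groups, with 6, 6 and 3 liver tissue libraries, 10, 5 and 10 small tumours and 5, 10 and 10 large tumours in sets 1, 2 and 3.

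Conjugation makes reactive or fat-soluble molecules water-soluble so that they can leave the hepatocyte. Glutathione transferases attach glutathione to electrophiles and to products of lipid peroxidation, glucuronosyltransferases attach glucuronic acid to bilirubin, steroids and drugs, and sulfotransferases attach sulfate to phenols, steroids and bile acids. In healthy liver many of these genes follow nuclear receptors for foreign compounds, and several glutathione transferases follow the oxidative stress factor NRF2 through antioxidant response elements.

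Levels are CPM (counts scaled to a common library total) after TMM scaling, given as the lowest, median and highest library of a group. Differences are log2 fold changes ± standard error from edgeR's quasi-likelihood test with the library-name set as a term, and adjusted p is Benjamini-Hochberg over 14538 genes. A gene is said to rise or fall where adjusted p was under 0.05. Both tumour groups were compared with the same 15 liver tissue libraries, so these 2 comparisons are not independent of each other.

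Most of the conjugation genes changed in tumours, and more of them fell than rose. In large tumours 39 of 47 passed the test, beside 70.5% of all genes tested, a share so high that being called says little by itself. The direction was uneven: 13 rose and 26 fell, beside 38.5% and 32.1% of all genes. At least 2-fold changes were 6 rises and 18 falls, beside 10.5% and 7.25% of all genes. The median difference was -0.58 over the 47 genes and 0.05 over all genes tested. In small tumours 36 of 47 passed, beside 65.7% of all genes. Of these 10 rose and 26 fell, beside 34.7% and 31% of all genes, and 6 rises and 16 falls were at least 2-fold, beside 8.98% and 5.4%. The count of rises in large tumours was 8 in place of 13 without large tumours 16 to 20. The summed level of all 61 genes was 9042, 10560 and 11450 CPM in liver tissue, 3691, 6339 and 10780 CPM in small tumours and 2973, 6342 and 12430 CPM in large tumours. Medians were lower in both tumour groups while the ranges overlapped. In bulk tissue, fewer cells of a type and less RNA per cell cannot be told apart.

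**Figure D1:**
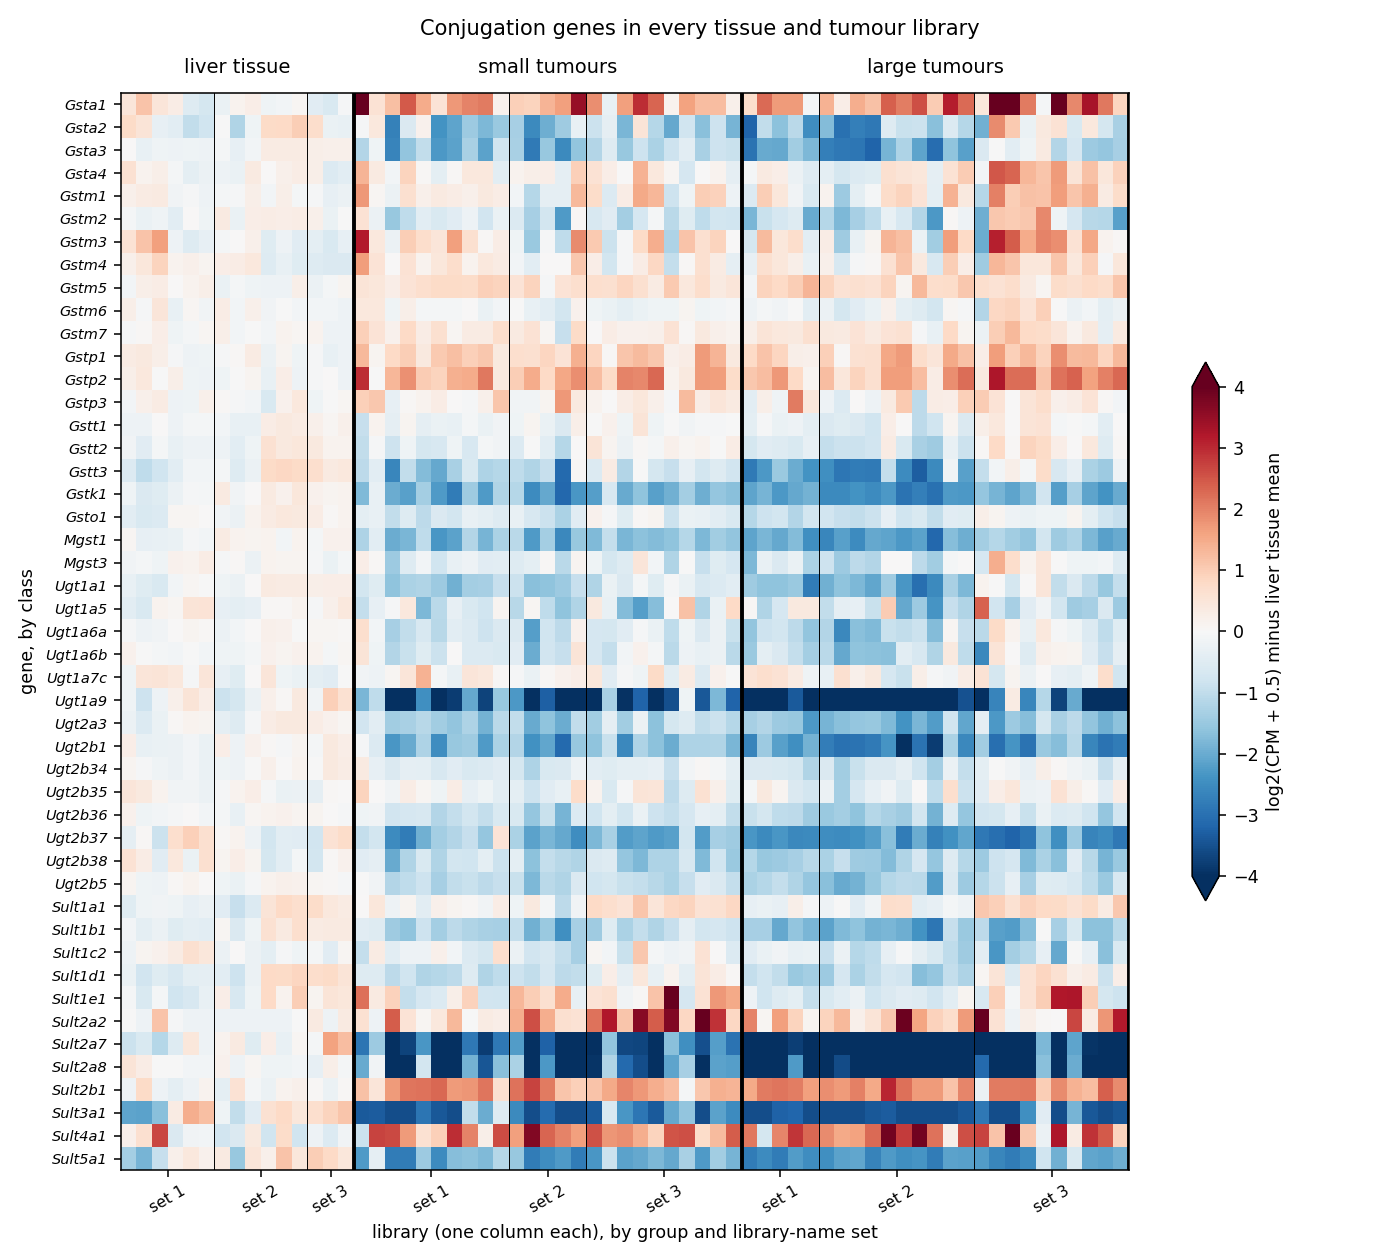
Each column is 1 library, ordered by group and library-name set, and each row is 1 of the 47 tested genes, ordered by class. Colour gives log2(CPM + 0.5) minus the liver tissue mean. Mgst1, Gstk1, Ugt1a9, Sult2a7 and Sult2a8 are blue in nearly all tumours, Gstp2 and Sult2b1 are mostly red, and Gstm1 runs from blue to red among the tumours.

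Levels were compared per kilobase of annotated exon, a rough way to set genes of different length side by side. The length counts all annotated exon bases of a gene and need not be that of the transcript expressed. By this measure Mgst1 held the highest mean level in liver tissue, at 1506 CPM per kb. It was followed by Gstm1 at 783, Gsta3 at 323 and Ugt2b36 at 250.5 CPM per kb. In large tumours the order of means was different, with Gstm1 at 1254, Mgst1 at 424, Sult1a1 at 254 and Gstp1 at 169 CPM per kb. Only 17.3% of the exon bases of Ugt1a1 are not shared with another gene, so its level depends on the length used. Per kb of annotated exon Ugt1a1 was at 164 CPM in liver tissue and 76.2 CPM in large tumours. Per kb of exon not shared with another gene it was at 948 and 440.1 CPM. By that length its rank was 2 in both groups, above Gstm1 in liver tissue and above Mgst1 in large tumours. Reads in shared exons were not credited to every Ugt1a gene, as described below. The orders by annotated exon may therefore place Ugt1a1 too low. Reads that aligned to several places were not counted, so genes with near-copies may stand too low as well. Ugt2b5 was at 240.6 CPM per kb in liver tissue, close behind Ugt2b36. Of short windows of their transcripts, 48.3% for Ugt2b5 and 92.9% for Ugt2b36 are found in no other gene's transcripts. The order of genes at such close levels is therefore uncertain.

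The alpha class divided within itself. Gsta3 (chromosome 1, 21240589 to 21265661, GRCm38), whose enzyme detoxifies aflatoxin epoxide in the mouse, was the main alpha gene, with 1092, 1320 and 1738 CPM in liver tissue, 195, 569 and 1225 CPM in small tumours and 149, 456 and 1787 CPM in large tumours. Below the lowest liver library lay 24 of 25 small and 22 of 25 large tumours. Gsta3 fell by 1.71 ± 0.20 in large tumours (adjusted p = 5.11e-11, edgeR) and by 1.53 ± 0.20 in small tumours (adjusted p = 1.29e-09, edgeR). The 5 large tumours with the most Gsta3 were replicates 16 to 20, at 925 to 1787 CPM, all of set 3. Within sets 1, 2 and 3 the difference of large tumours from liver tissue was -1.86, -2.44 and -0.91. The liver tissue of set 2 was itself split. Gsta3 was 1092 to 1320 CPM in liver tissue 7 to 9 and 1727 to 1738 CPM in 10 to 12. Sult1d1 was 43.0 to 65.8 and 131.9 to 138.7 CPM there, while all tumours of set 2 had 23.4 to 48.4 CPM of Sult1d1. The set term does not take up this split, so differences within set 2 depend on which of its liver libraries are used. Gsta2 also fell, by 1.16 ± 0.40 in large tumours (adjusted p = 0.00909, edgeR), although without set 2 the difference was -0.45 with adjusted p = 0.495.

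Gsta1 moved the other way at a low level, with 0.221, 0.641 and 2.10 CPM in liver tissue, 0.450, 2.80 and 21.7 CPM in small tumours and 0.600, 3.98 and 34.9 CPM in large tumours. Above the highest liver library lay 18 of 25 large tumours. Gsta1 rose by 3.00 ± 0.54 in large and 2.34 ± 0.51 in small tumours (adjusted p = 1.49e-06 and 5.99e-05, edgeR). Only 7.70% of the 36-base windows of Gsta1 transcripts, and 42.2% of those of Gsta2, are found in no other gene's transcripts. Their counts therefore come from part of each gene and are uncertain. Gsta4, which conjugates the lipid peroxidation product 4-hydroxynonenal, rose by 0.54 ± 0.22 in large tumours (adjusted p = 0.0279, edgeR). Without set 3 its difference was 0.02 (adjusted p = 0.934), and without large tumours 16 to 20 it was 0.29 (adjusted p = 0.161).

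The mu class is a cluster of 7 tested genes on chromosome 3, of which 5 rose in large tumours and none fell. Of all genes 38.5% rose and 32.1% fell in large tumours. In small tumours 2 rose (Gstm5 and Gstm7) and 1 fell (Gstm2). Gstm1 (108012255 to 108017973), the most abundant, had 900.3, 1100 and 1455 CPM in liver tissue, 519.8, 1407 and 3825 CPM in small tumours and 415, 1659 and 4629 CPM in large tumours. Of the large tumours 15 lay above the liver range and 6 below it, so single tumours departed in both directions. The difference of large tumours from liver tissue was 0.55 ± 0.23 (adjusted p = 0.0302, edgeR). It was -0.05, 0.16 and 1.15 within sets 1, 2 and 3. Without set 1, without set 3 and without large tumours 16 to 20, adjusted p for Gstm1 was 0.0552, 0.371 and 0.0632. Gstm3 (0.91 ± 0.37) and Gstm4 (0.45 ± 0.19) also rose in large tumours, and both calls were lost without set 2 (adjusted p = 0.0626 and 0.0738), without set 3 (0.408 and 0.556) and without large tumours 16 to 20 (0.095 and 0.0763). The 3 liver tissue libraries with the most Gstm3 (88.4, 132 and 186 CPM) were replicates 1 to 3, all of set 1.

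Gstm5 was called higher in both tumour groups under every alternative but a 2-fold minimum. It had 8.13, 9.28 and 12.1 CPM in liver tissue, 9.45, 15.6 and 20.6 CPM in small tumours and 9.11, 16.3 and 25.9 CPM in large tumours. Above the liver range lay 23 of 25 small and 22 of 25 large tumours. Gstm5 rose by 0.80 ± 0.09 in large and 0.65 ± 0.09 in small tumours (adjusted p = 4.59e-11 and 1.72e-08, edgeR), and its difference in large tumours was 0.65, 0.86 and 0.69 within sets 1, 2 and 3. Gstm7 rose by 0.47 ± 0.11 in large tumours (adjusted p = 0.000173, edgeR). In small tumours the call of Gstm7 was lost without set 1 (0.21, adjusted p = 0.275) and that of Gstm2 without set 2 (-0.45, adjusted p = 0.259). Gstm2 and Gstm6 did not pass in large tumours, at -0.47 ± 0.27 and -0.06 ± 0.12. For Gstm2 the 4 large tumours above the liver range were replicates 17 to 20, at 88.6 to 169 CPM, and 17 of 25 lay below it. Without large tumours 16 to 20 the difference was -0.99 for Gstm2 (adjusted p = 6.21e-06) and -0.26 for Gstm6 (adjusted p = 0.00392), so that both fell.

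All 3 pi class genes, neighbours on chromosome 19, rose in both tumour groups, beside 38.5% of all genes in large and 34.7% in small tumours. Pi class transferases have long served as markers of altered foci in rat hepatocarcinogenesis. Gstp1 had 103, 121 and 165 CPM in liver tissue, 130.5, 227 and 409 CPM in small tumours and 129, 243 and 456 CPM in large tumours, and 21 of 25 large and 21 of 25 small tumours lay above the liver range. It rose by 1.00 ± 0.15 in large and 0.86 ± 0.15 in small tumours (adjusted p = 1.91e-08 and 6.59e-07, edgeR). Gstp2, at 12.5, 15.3 and 20.9 CPM in liver tissue and 16.6, 47.8 and 148 CPM in large tumours, rose by 1.59 ± 0.24 (adjusted p = 2.2e-08, edgeR). Gstp1 and Gstp2 are near-copies, with 62.8% and 41.7% of their windows unique, so the split of reads between them is uncertain. Gstp3 rose by 0.43 ± 0.18 in large tumours (adjusted p = 0.0325, edgeR). This call was lost without set 1 (adjusted p = 0.183), set 3 (0.148) or large tumours 16 to 20 (0.114), and that of Gstp3 in small tumours without any 1 set (0.0727, 0.0774 and 0.115).

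The remaining soluble transferases fell in large tumours. Gstk1, the kappa enzyme of mitochondria and peroxisomes, had 79.8, 122 and 164 CPM in liver tissue, 13.3, 30.9 and 97.3 CPM in small tumours and 14.9, 25.7 and 71.1 CPM in large tumours, which did not overlap with liver tissue. It fell by 2.21 ± 0.17 in large and fell by 1.85 ± 0.17 in small tumours (adjusted p = 7.1e-18 and 1.08e-14, edgeR). In the theta class, which acts on small halogenated compounds, all 3 tested genes fell in large tumours, beside 32.1% of all genes. Gstt3 had 28.9, 54.3 and 105 CPM in liver tissue and 5.46, 20.7 and 97.6 CPM in large tumours, and fell by 1.61 ± 0.25 (adjusted p = 5.84e-08, edgeR). Gstt1, the most abundant theta gene, and Gstt2 fell by 0.22 ± 0.10 and 0.41 ± 0.13 in large tumours (adjusted p = 0.0376 and 0.0039, edgeR). Without set 2 adjusted p was 0.648 for Gstt1 and 0.628 for Gstt2, and without set 1 it was 0.0547 for Gstt1. Gsto1, the omega enzyme that also reduces dehydroascorbate, had 56.6, 91.6 and 117 CPM in liver tissue and 38.3, 52.3 and 103 CPM in large tumours and fell by 0.67 ± 0.10 (adjusted p = 4.11e-08, edgeR).

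Mgst1 was lower in every tumour than in every liver tissue library. It codes for a membrane protein of the endoplasmic reticulum and outer mitochondrial membrane that conjugates electrophiles and reduces lipid hydroperoxides. Levels were 2382, 3202 and 3763 CPM in liver tissue, 507, 977 and 2237 CPM in small tumours and 337, 739 and 1814 CPM in large tumours. The lowest liver library stood above the highest tumour of either group. Mgst1 fell by 1.92 ± 0.14 in large and fell by 1.59 ± 0.14 in small tumours (adjusted p = 4.4e-18 and 7.05e-15, edgeR), and within sets 1, 2 and 3 the difference in large tumours was -1.88, -2.39 and -1.57. Mgst3 fell by 0.43 ± 0.18 in small tumours (adjusted p = 0.0302, edgeR), a call lost without set 1, 2 or 3 (adjusted p = 0.0883, 0.128 and 0.0789). In large tumours Mgst3 did not pass at -0.34 ± 0.18, but did without large tumours 16 to 20 (-0.58, adjusted p = 0.000943).

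**Figure D2:**
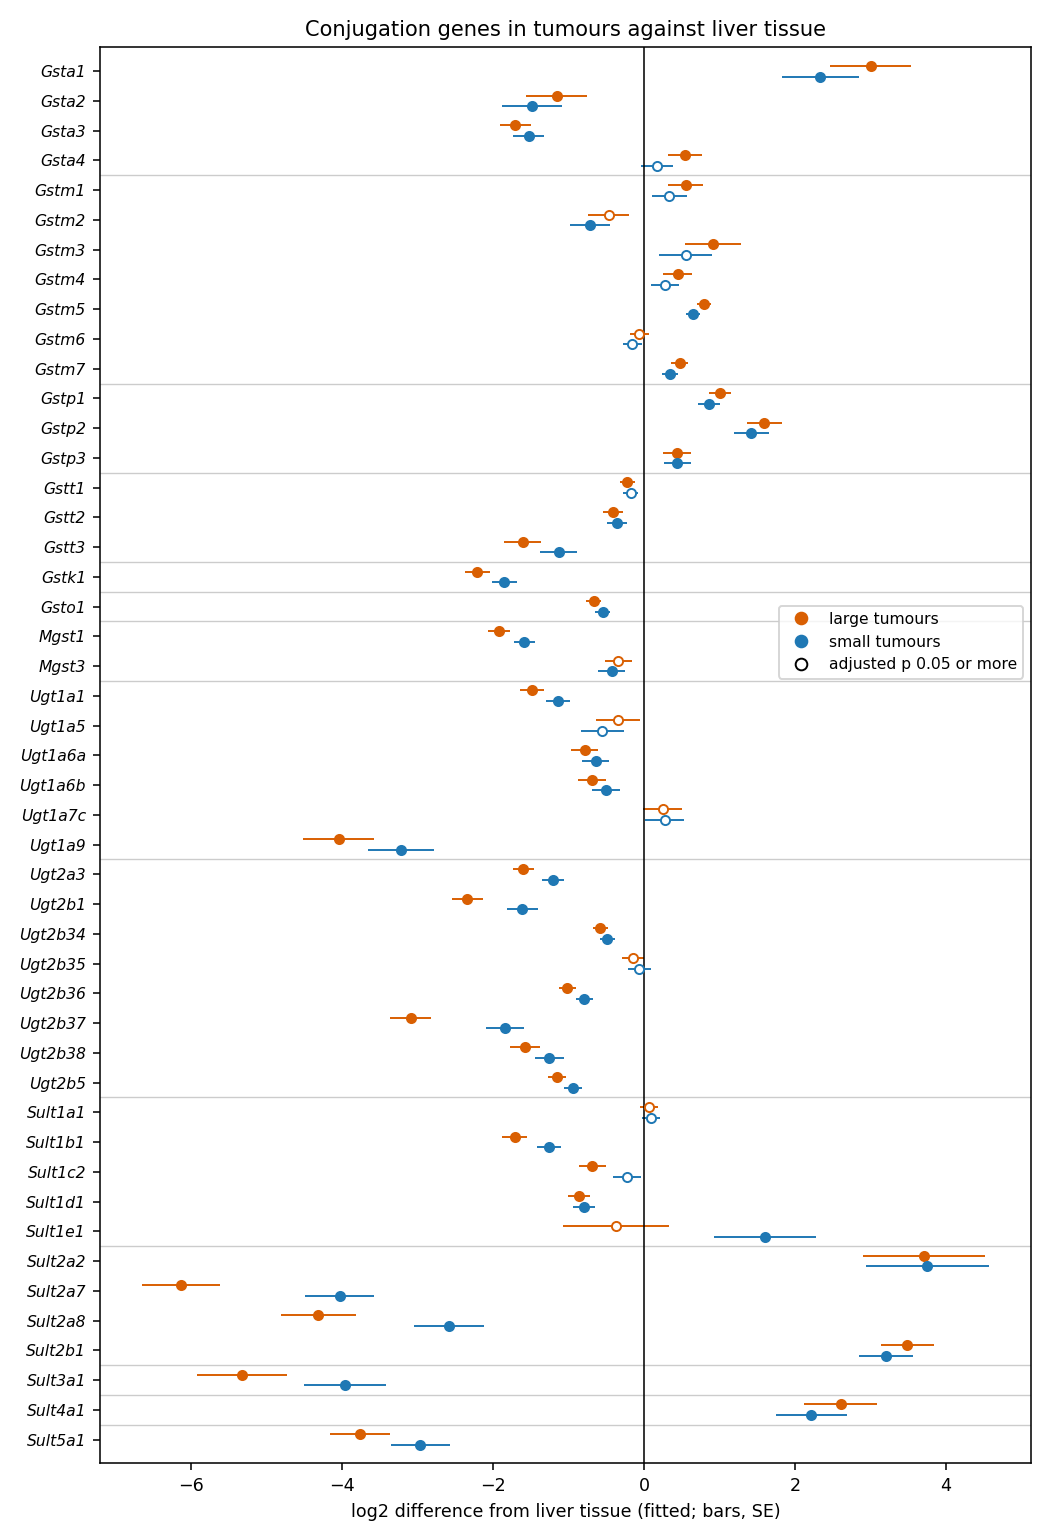
Points give the fitted log2 difference of large (orange) and small (blue) tumours from liver tissue for the 47 tested genes, with standard errors as bars and open points where adjusted p was 0.05 or more. Every filled point of the Ugt genes lies left of 0, those of the Gstp genes lie right of 0, and the Sult genes spread from -6.13 (Sult2a7) to 3.71 (Sult2a2) in large tumours.

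Promoter sequences are shown for 4 glutathione transferase genes because they hold the same short word yet belong to genes that moved in opposite directions. The word is the core of the antioxidant response element, TGACNNNGC, searched on both strands of RefSeq promoters (GRCm38.p6), from 250 bases before to 50 bases after the start. It was found in 4 of the 54 conjugation genes that have a promoter in the table (7.41%), beside 14.0% of all 27025 genes. It is present in Gstm5 and Gstm7, which rose, and in Gsta3 and Mgst1, which fell. Capitals mark the match, which begins at -42, -129, -121 and -56 from the start site in Gstm5 (chr3:107895604-107895903, plus strand), Gstm7 (chr3:107931565-107931864, minus strand), Gsta3 (chr1:21240335-21240634, plus strand) and Mgst1 (chr6:138140277-138140576, plus strand). In Mgst1 the match is on the opposite strand. The start sites are those of RefSeq. In the GENCODE annotation Gstm7 begins further upstream, at 107931817, and so does Mgst1, at 138140316. In both genes the match therefore lies inside the annotated gene. A looser spelling, TGANNNNGC, was found in 26 of the 54 genes (48.1%) and in 12174 of all 27025 genes, and in all 3 Gstp promoters.
Gstm5: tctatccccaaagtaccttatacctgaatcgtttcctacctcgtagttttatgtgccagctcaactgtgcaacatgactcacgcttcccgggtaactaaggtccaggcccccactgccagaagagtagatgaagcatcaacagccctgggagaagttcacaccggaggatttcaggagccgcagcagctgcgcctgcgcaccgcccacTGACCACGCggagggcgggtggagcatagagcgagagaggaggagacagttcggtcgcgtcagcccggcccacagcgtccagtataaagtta
Gstm7: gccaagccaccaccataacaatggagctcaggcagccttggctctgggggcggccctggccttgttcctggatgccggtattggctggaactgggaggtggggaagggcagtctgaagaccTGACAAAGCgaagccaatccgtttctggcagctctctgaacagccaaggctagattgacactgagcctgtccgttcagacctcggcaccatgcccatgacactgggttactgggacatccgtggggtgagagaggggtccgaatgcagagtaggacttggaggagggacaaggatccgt
Gsta3: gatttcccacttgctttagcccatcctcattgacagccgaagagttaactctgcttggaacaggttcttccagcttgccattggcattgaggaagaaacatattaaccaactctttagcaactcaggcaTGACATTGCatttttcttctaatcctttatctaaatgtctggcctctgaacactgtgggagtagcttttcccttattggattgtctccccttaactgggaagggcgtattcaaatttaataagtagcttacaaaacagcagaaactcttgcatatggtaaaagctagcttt
Mgst1: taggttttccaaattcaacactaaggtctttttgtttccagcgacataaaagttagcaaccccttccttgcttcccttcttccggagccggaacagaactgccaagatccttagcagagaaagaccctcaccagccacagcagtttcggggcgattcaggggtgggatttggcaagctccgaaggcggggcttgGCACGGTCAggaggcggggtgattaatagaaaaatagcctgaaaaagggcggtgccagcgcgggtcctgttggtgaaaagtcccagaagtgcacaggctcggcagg

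No glucuronosyltransferase rose in either tumour group, and 11 of 14 tested genes fell in each. Of all genes 32.1% fell in large and 31% in small tumours. Their summed level was 2291, 2791 and 3157 CPM in liver tissue, 904, 1561 and 2668 CPM in small tumours and 669.8, 1299 and 2394 CPM in large tumours. The Ugt1a genes on chromosome 1 are alternative first exons joined to shared 3' exons. Among the 6 tested ones between 17.3% and 49.7% of exon bases are the gene's own, with overlap counted on both strands. The processing notes do not give how reads in shared exons were counted. Ugt1a8 shares these exons with Ugt1a1 but had 2 counts over the 65 tissue libraries, where Ugt1a1 had 234759. Reads in shared exons were therefore not credited to every Ugt1a gene, and each Ugt1a count may rest on part of a transcript. Ugt1a1, which conjugates bilirubin, had 236, 365 and 462 CPM in liver tissue, 94.5, 188 and 348 CPM in small tumours and 44.1, 127 and 502 CPM in large tumours. One large tumour stood above the liver range and 20 of 25 below it. Ugt1a1 fell by 1.49 ± 0.16 in large and fell by 1.14 ± 0.16 in small tumours (adjusted p = 1.48e-12 and 4.39e-09, edgeR).

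Ugt1a9, an enzyme for phenols, changed most among the family 1 genes tested. Levels were 17.1, 32.5 and 61.7 CPM in liver tissue, 0.301, 2.58 and 28.2 CPM in small tumours and 0.220, 0.823 and 40.0 CPM in large tumours. Below the liver range lay 24 of 25 large tumours, and the exception, replicate 18, had 40.0 CPM. Ugt1a9 fell by 4.05 ± 0.47 in large and fell by 3.22 ± 0.44 in small tumours (adjusted p = 2.15e-11 and 3.96e-09, edgeR). Ugt1a6a and Ugt1a6b, for small planar phenols, fell by 0.79 ± 0.18 and 0.69 ± 0.19 in large tumours. The call of Ugt1a6b was lost without set 2 (-0.50, adjusted p = 0.0573), and its call in small tumours without set 1, 2 or 3 (adjusted p = 0.0513, 0.0714 and 0.0719). Ugt1a5 (-0.35 ± 0.29) and Ugt1a7c (0.25 ± 0.26) did not pass. In large tumour 16 Ugt1a5 reached 292 CPM, and the next highest large tumour had 116 CPM.

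The promoters of Ugt1a1 and Ugt1a9 are shown because both genes fell and both hold a 10-base word, GTTAAT and ATT separated by 1 base of any kind, that is part of the site of hepatocyte factor HNF1. It was found in 8 of 54 conjugation genes, beside 0.47% of all genes. These were Ugt1a1, Ugt1a9 and Sult1d1, which fell, and 5 that were not tested, Ugt1a10 and the near-copies Sult2a3, Sult2a4, Sult2a5 and Sult2a6. The word was 1 of 11 spellings searched and was picked after the matches were seen. The whole 13-base palindrome was in none of the 54. Capitals mark the match on the opposite strand, at -45 in Ugt1a1 (chr1:88211709-88212008, plus strand) and -95 in Ugt1a9 (chr1:88070529-88070828, plus strand).
Ugt1a1: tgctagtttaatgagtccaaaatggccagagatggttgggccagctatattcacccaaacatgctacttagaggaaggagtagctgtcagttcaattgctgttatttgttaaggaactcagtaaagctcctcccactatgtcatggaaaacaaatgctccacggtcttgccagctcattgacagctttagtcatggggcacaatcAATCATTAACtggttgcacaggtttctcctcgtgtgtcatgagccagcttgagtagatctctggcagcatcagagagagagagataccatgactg
Ugt1a9: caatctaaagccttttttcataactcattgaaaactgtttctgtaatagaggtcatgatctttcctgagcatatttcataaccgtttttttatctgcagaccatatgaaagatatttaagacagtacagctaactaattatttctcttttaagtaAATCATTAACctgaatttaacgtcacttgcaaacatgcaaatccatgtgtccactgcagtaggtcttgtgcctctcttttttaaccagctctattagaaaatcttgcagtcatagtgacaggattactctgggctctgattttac

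In family 2, which acts on steroids, bile acids and drugs, 7 of 8 tested genes fell in each tumour group. The share of all genes that fell was 32.1% in large and 31% in small tumours. Ugt2b36, with a median of 521 CPM in liver tissue and 277 CPM in large tumours, fell by 1.01 ± 0.11 in large tumours (adjusted p = 2.82e-12, edgeR). Ugt2b34 fell by 0.58 ± 0.10 (adjusted p = 4.66e-07, edgeR), a smaller change. Ugt2b1 had 302, 363 and 483 CPM in liver tissue, 42.4, 129.6 and 362 CPM in small tumours and 17.7, 60.8 and 173 CPM in large tumours, which did not overlap with liver tissue. Ugt2b1 fell by 2.35 ± 0.21 in large and fell by 1.61 ± 0.21 in small tumours (adjusted p = 1.68e-15 and 6.68e-10, edgeR). Ugt2b37, a minor member, had 2.75, 5.49 and 11.0 CPM in liver tissue and 0.138, 0.529 and 1.66 CPM in large tumours, again without overlap, and fell by 3.10 ± 0.27 (adjusted p = 1.06e-15, edgeR). Ugt2a3 fell by 1.60 ± 0.14 and Ugt2b38 by 1.58 ± 0.20 in large tumours. Ugt2b5 had 368, 457 and 507 CPM in liver tissue and 93.5, 200.4 and 354 CPM in large tumours, and fell by 1.15 ± 0.12 (adjusted p = 4.27e-13, edgeR). Ugt2b35 did not pass in either group, at -0.14 ± 0.15 in large and -0.06 ± 0.15 in small tumours. Of the 36-base windows 48.3% are unique in Ugt2b5, 51.3% in Ugt2b38 and 99.5% in Ugt2b1.

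Sulfotransferases diverged. Of 12 tested genes 3 rose and 7 fell in large tumours, and 4 rose and 6 fell in small tumours. Of all genes 38.5% rose and 32.1% fell in large tumours, and 34.7% rose and 31% fell in small tumours. Sult1a1, the main enzyme for phenols, had 157, 267 and 521 CPM in liver tissue, 144, 369 and 641 CPM in small tumours and 216, 354 and 634 CPM in large tumours, and the groups overlapped widely. Its differences were 0.07 ± 0.12 in large and 0.09 ± 0.12 in small tumours. Without set 2 both passed, at 0.24 (adjusted p = 0.0356) and 0.28 (adjusted p = 0.00864, both edgeR). In set 2 Sult1a1 was 157 to 216 CPM in liver tissue 7 to 9 and 427 to 521 CPM in 10 to 12. Sult1b1, which sulfates thyroid hormone, fell by 1.72 ± 0.16 and Sult1d1, which sulfates catecholamines, by 0.86 ± 0.14 in large tumours (adjusted p = 2.43e-14 and 2.09e-07, edgeR). Sult1c2 fell by 0.69 ± 0.18 in large tumours.

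Falls beyond those of family 1 were seen in families 2, 3 and 5. Sult2a8, a bile acid sulfotransferase of mouse liver, had 297, 357 and 539 CPM in liver tissue, 2.44, 43.5 and 342 CPM in small tumours and 0.978, 10.8 and 117 CPM in large tumours. All 25 large tumours were below the lowest liver library, and they ranged widely among themselves. Sult2a8 fell by 4.32 ± 0.50 in large and fell by 2.58 ± 0.47 in small tumours (adjusted p = 1.68e-11 and 2.4e-06, edgeR). Sult2a7 had 4.01, 9.10 and 30.4 CPM in liver tissue, a count in 20 of 25 small tumours and a count in 7 of 25 large tumours, where the highest was 2.40 CPM. The fitted fall of 6.13 ± 0.52 (adjusted p = 5.52e-16, edgeR) depends on how counts of 0 are handled. Sult3a1, with a count in 11 of 25 large tumours, and Sult5a1 fell by 5.33 ± 0.60 and 3.76 ± 0.40 (adjusted p = 8.23e-12 and 1.19e-12, edgeR).

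The 3 sulfotransferases that rose in large tumours did so from very low levels. Sult2b1, the cholesterol sulfotransferase of skin and other epithelia, had 0, 0.123 and 0.610 CPM in liver tissue, 0.115, 1.35 and 3.76 CPM in small tumours and 0.0616, 1.91 and 4.94 CPM in large tumours, where 24 of 25 lay above the liver range. It rose by 3.49 ± 0.35 in large and 3.21 ± 0.35 in small tumours (adjusted p = 2.52e-13 and 7.34e-12, edgeR). Sult4a1, a sulfotransferase-like gene best known from brain, rose by 2.60 ± 0.49 in large tumours (adjusted p = 3.79e-06, edgeR), although only 8 of 25 exceeded the highest liver library (7.04 CPM). Sult2a2 rose by 3.71 ± 0.81 (adjusted p = 5.33e-05, edgeR) with a count in 6 of 15 liver and 24 of 25 large tumour libraries, and 29.2% of its windows are unique. Sult1e1, the oestrogen sulfotransferase, rose in small tumours by 1.60 ± 0.67 (adjusted p = 0.0329, edgeR). Small tumour 21 had 57.6 CPM of it while the next highest had 3.94 CPM, and without that library the difference was 0.90 with adjusted p = 0.156. Without set 1 adjusted p was 0.154.

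**Figure D3:**
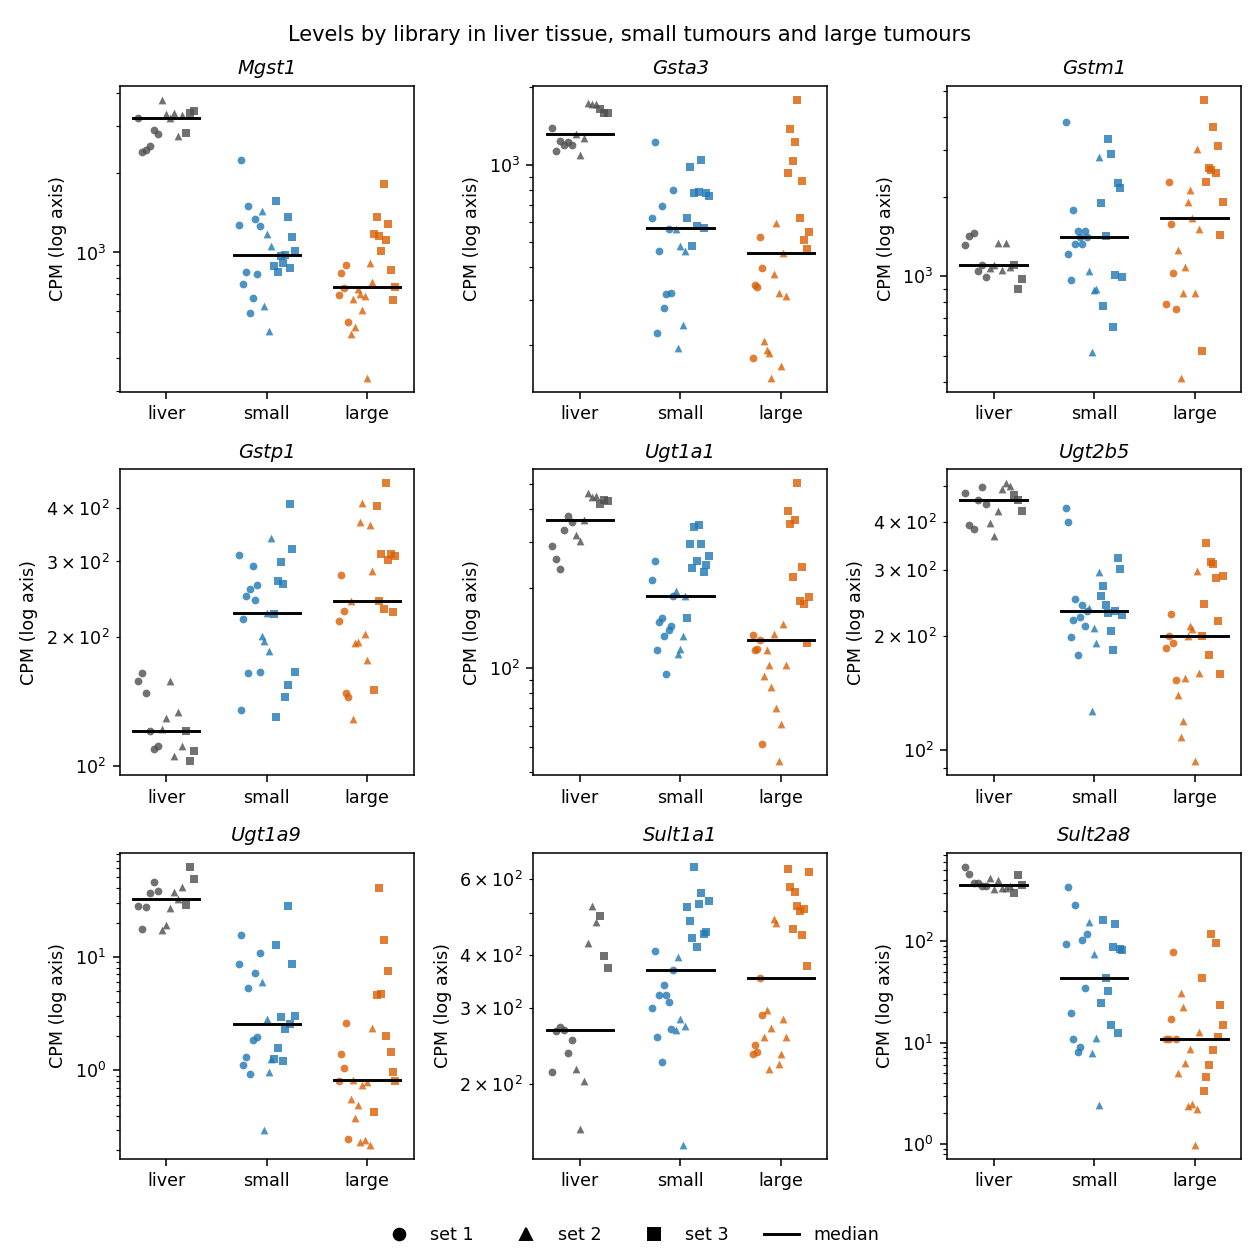
Points are single libraries, shaped by library-name set, on a logarithmic CPM axis for 9 genes in liver tissue, small tumours and large tumours, with the group median as a line. Mgst1 separates completely, Gstm1 and Sult1a1 overlap, and Sult2a8 spreads from 0.978 to 117 CPM among the large tumours.

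Of the 39 genes called in large tumours, 34 had the same direction in all 3 library-name sets. The exceptions were Gsta4, Gstm1, Gstm3, Gstm4 and Gstt2. In small tumours all 36 had the same direction in each set. The genes were called on these same libraries, so agreement in direction follows in part from the choice. The share over all called genes is not given here. Groups that did not overlap were 7 genes lower in large tumours (Gstk1, Mgst1, Sult2a7, Sult2a8, Ugt2b1, Ugt2b37 and Ugt2b5), beside 2.21% of all genes tested. For small tumours they were Mgst1 and Sult2a7, beside 0.523%.

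Large and small tumours were then compared directly. Of 47 genes 5 fell from small to large tumours and none rose, beside 2.48% of all genes called, 0.929% higher and 1.55% lower. Of the 5, 4 fell at least 2-fold, beside 0.564% of all genes lower and 0.0619% higher by that much. At an unadjusted p under 0.05, 15 conjugation genes were lower and 0 higher, beside 9.01% and 9.58% of all genes. DESeq2 called 7 lower and none higher, beside 2.59% and 1.33% of all genes it gave an adjusted p. Ugt2b37 fell by 1.26 ± 0.26 (adjusted p = 0.00695, edgeR), Sult2a8 by 1.74 ± 0.42 (adjusted p = 0.017), Ugt2b1 by 0.73 ± 0.18 (adjusted p = 0.0203), Sult2a7 by 2.10 ± 0.53 (adjusted p = 0.0203) and Sult1e1 by 1.97 ± 0.52 (adjusted p = 0.0282). These 5 genes, called on the same libraries, had the same direction within each of the 3 sets, and the groups overlapped for all of them. Without set 1 none was called, and without set 2 only Ugt2b37 was. Without small tumour 21 the difference of Sult1e1 was -0.77 with adjusted p = 0.399.

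**Figure D4:**
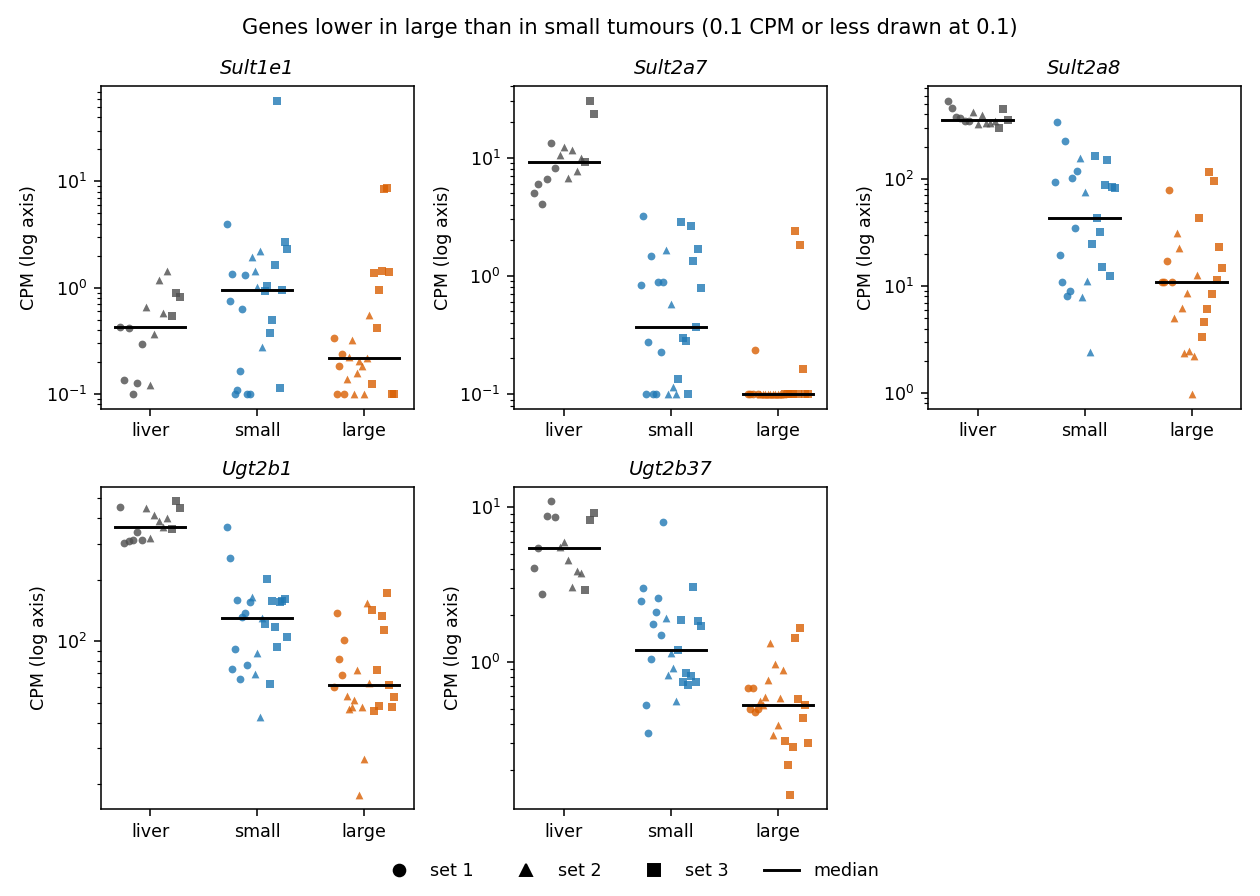
Points are single libraries, shaped by library-name set, on a logarithmic CPM axis for the 5 genes that fell from small to large tumours, with values of 0.1 CPM or less drawn at 0.1 and group medians as lines. Medians fall from small to large tumours in each panel, from 43.5 to 10.8 CPM for Sult2a8 and from 129.6 to 60.8 CPM for Ugt2b1, while the points overlap. One small tumour stands alone for Sult1e1, at 57.6 CPM.

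The count also moved with large tumours 16 to 20, the 5 with the most Gsta3. Without them, 12 conjugation genes were lower in large than in small tumours and none higher, beside 5.37% and 1.79% of all genes. Mgst1 (-0.51, adjusted p = 0.0132), Ugt1a1 (-0.65, adjusted p = 0.00539) and Ugt1a9 (-1.81, adjusted p = 0.00678, all edgeR) were among those added, and 4 of the first 5 were still called. These libraries were picked for their high levels, so lower values without them follow in part from the choice.

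Tumours differed among themselves more than liver tissue did. The SD of log2(CPM + 0.5) was larger in large tumours than in liver tissue for 41 of 47 conjugation genes (87.2%) and for 86.4% of all genes tested. For small tumours it was 43 of 47 (91.5%) and 80.3%. The size of the spread stood further from the background than its direction, with a median SD of 0.65 over the 47 genes and 0.29 over all genes in large tumours, against 0.31 and 0.21 in liver tissue. Gsta3 had an SD of 0.24 in liver tissue and 1.00 in large tumours, and Gstm1 0.21 and 0.88. For Sult1a1 the SDs were 0.54 and 0.54.

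Whether members of different classes varied together was examined over the 25 libraries of each tumour group. The member with the highest mean CPM of the alpha, mu and pi classes, of UGT families 1 and 2 and of the sulfotransferases was taken, namely Gsta3, Gstm1, Gstp1, Ugt1a1, Ugt2b34 and Sult1a1, and Mgst1 was not in these relations. The 6 genes were paired with each other, with Nqo1, an NRF2 target that codes for a quinone reductase, and with Glul, the glutamine synthetase gene of pericentral hepatocytes. In all 54 relations were computed. After adjustment 11 of 27 passed in small tumours and 17 of 27 in large tumours. Values are Pearson's r and Spearman's rho on log2 CPM with permutation p-values from 100000 resamples, for which 1e-05 is the smallest p possible.

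Gstm1, Gstp1 and Nqo1 varied together in both tumour groups. In small tumours Nqo1 correlated with Gstm1 (r = 0.88, permutation p = 1e-05, adjusted p = 7.71e-05; rho = 0.90, p = 1e-05) and with Gstp1 (r = 0.85, permutation p = 1e-05, adjusted p = 7.71e-05; rho = 0.86, p = 1e-05). In large tumours r was 0.78 for Gstm1 (permutation p = 1e-05, adjusted p = 7.71e-05; rho = 0.75, p = 5e-05) and 0.71 for Gstp1 (permutation p = 3e-05, adjusted p = 0.000147; rho = 0.71, p = 0.00014). Without the 2 libraries farthest from the median of the first gene, r was 0.85 and 0.84 in small tumours and 0.74 and 0.66 in large tumours. In the sets with 10 libraries, r of Nqo1 with Gstm1 was 0.66 and 0.97 in small tumours (sets 1 and 3) and 0.85 and 0.59 in large tumours (sets 2 and 3). Gstm1 and Gstp1, on different chromosomes, correlated with each other by r = 0.72 in small tumours (permutation p = 8e-05, adjusted p = 0.000309; rho = 0.78, p = 1e-05) and r = 0.87 in large tumours (permutation p = 1e-05, adjusted p = 7.71e-05; rho = 0.86, p = 1e-05). Without the 2 farthest libraries these were 0.75 and 0.83, and within sets 0.52 and 0.86 in small and 0.90 and 0.89 in large tumours.

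Gstm1 also correlated with Ugt2b34 on chromosome 5, by r = 0.75 in small tumours (permutation p = 3e-05, adjusted p = 0.000147; rho = 0.66, p = 0.00063) and r = 0.75 in large tumours (permutation p = 6e-05, adjusted p = 0.000249; rho = 0.79, p = 1e-05). Without the 2 farthest libraries these were 0.59 and 0.81, and within sets 0.88 and 0.53 in small and 0.84 and 0.53 in large tumours. Nqo1 and Ugt2b34 correlated by r = 0.57 in small (permutation p = 0.00202, adjusted p = 0.00496; rho = 0.57, p = 0.00378) and r = 0.73 in large tumours (permutation p = 9e-05, adjusted p = 0.000324; rho = 0.69, p = 0.00018), and by 0.52 and 0.57 without the 2 farthest libraries. Within sets the r of Nqo1 with Ugt2b34 was 0.38 and 0.55 in small and 0.76 and 0.51 in large tumours.

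The highest r of Gsta3 was with Ugt1a1 in small tumours (r = 0.79, permutation p = 1e-05, adjusted p = 7.71e-05; rho = 0.82, p = 1e-05) and with Sult1a1 in large tumours (r = 0.81, permutation p = 1e-05, adjusted p = 7.71e-05; rho = 0.83, p = 1e-05). Without the 2 farthest libraries these were 0.75 and 0.82. Within sets 1 and 3 of the small tumours r with Ugt1a1 was 0.84 and 0.54, and within sets 2 and 3 of the large tumours r with Sult1a1 was 0.63 and 0.30. In large tumours Gsta3 and Ugt1a1 correlated by r = 0.77 over all 25 libraries (permutation p = 1e-05, adjusted p = 7.71e-05; rho = 0.77, p = 5e-05) and 0.72 without the 2 farthest. With set means removed that r was 0.41 (adjusted p = 0.109, permutation), and within sets 2 and 3 it was 0.11 and 0.91, so that it did not hold within set 2. In small tumours Gsta3 and Sult1a1 correlated by r = 0.57 (permutation p = 0.00231, adjusted p = 0.0052; rho = 0.61, p = 0.00171), which was 0.65 without the 2 farthest libraries, 0.42 and 0.55 within sets 1 and 3, and 0.28 with set means removed (adjusted p = 0.392, permutation).

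In small tumours Gsta3 also correlated with Glul (r = 0.71, permutation p = 0.00011, adjusted p = 0.000371; rho = 0.71, p = 0.00012). That r was 0.72 without the 2 farthest libraries and 0.82 and 0.62 within sets 1 and 3. With Nqo1 its r was -0.05 in small tumours (permutation p = 0.802, adjusted p = 0.817; rho = -0.16, p = 0.446). Within sets 1, 2 and 3 the r of Gsta3 with Nqo1 was -0.43, 0.41 and -0.61. With set means removed it was -0.25 (adjusted p = 0.366, permutation). Gstp1 ran against Glul in small tumours (r = -0.57, permutation p = 0.004, adjusted p = 0.00831; rho = -0.60, p = 0.00192), with -0.51 without the 2 farthest libraries and -0.62 and -0.76 within sets 1 and 3. In large tumours the relation of Glul with Gsta3 (r = 0.56, permutation p = 0.00283, adjusted p = 0.00611; rho = 0.41, p = 0.0395) rested on 2 libraries, without which r was 0.27. In large tumours Nqo1 correlated with Gsta3 by r = 0.68 (permutation p = 0.0002, adjusted p = 0.000635; rho = 0.69, p = 0.00014), which was 0.60 without the 2 farthest libraries and 0.78 and 0.22 within sets 2 and 3. Whether these correlations differ between small and large tumours was not tested.

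**Figure D5:**
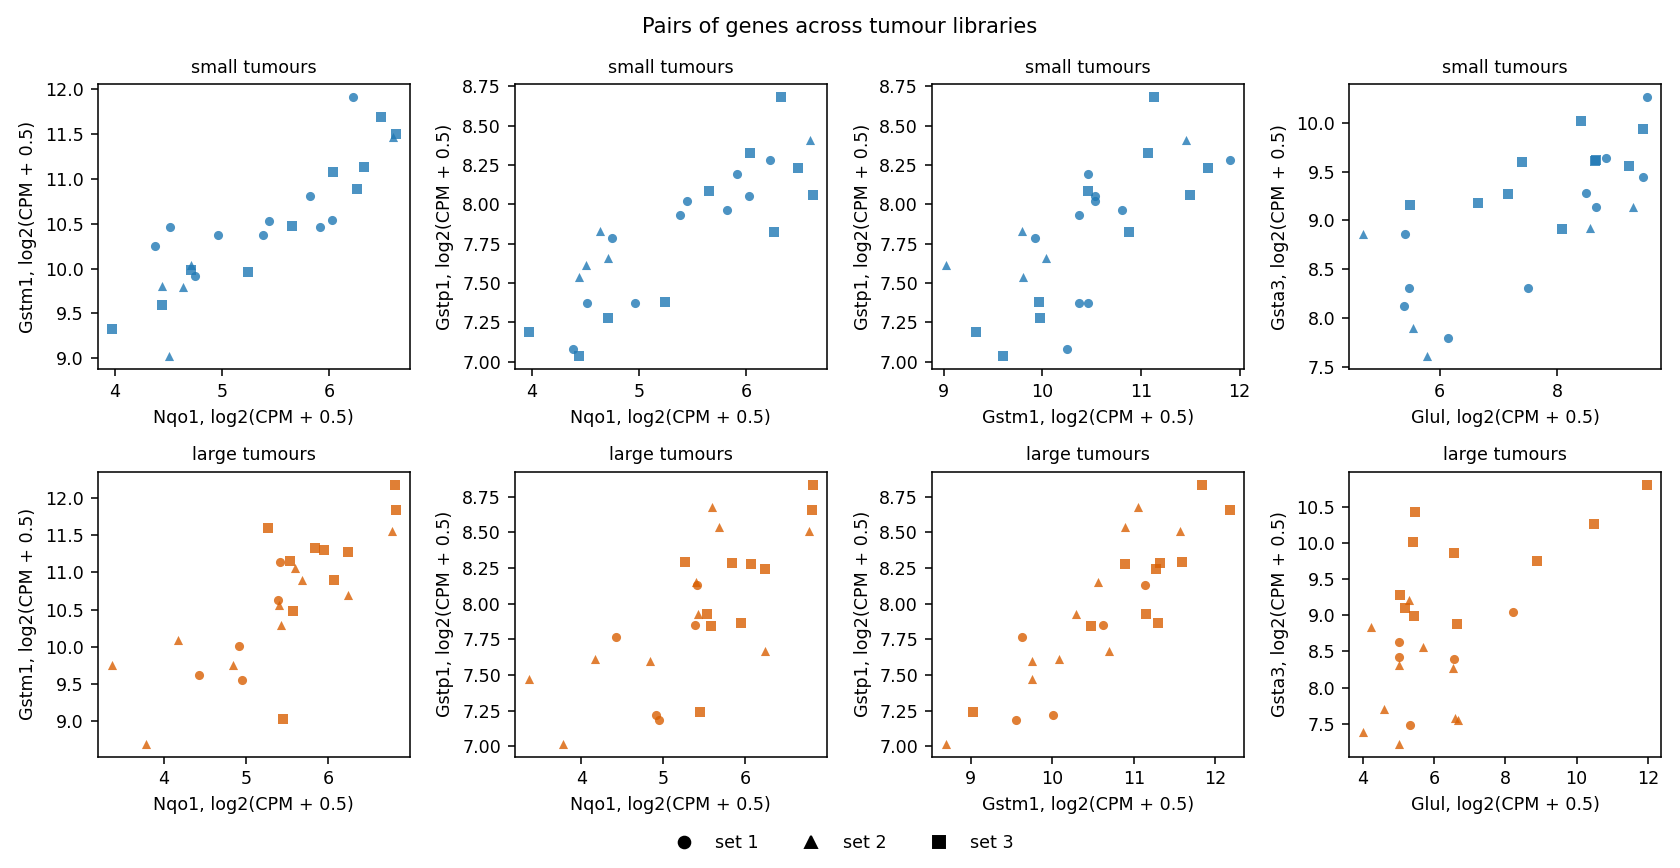
Each point is 1 tumour library, shaped by library-name set, with log2(CPM + 0.5) of one gene against another for small (top) and large (bottom) tumours. Nqo1 rises with Gstm1 (r = 0.88 and 0.78) and Gstp1 (r = 0.85 and 0.71) and Gstm1 with Gstp1 (r = 0.72 and 0.87). Gsta3 against Glul gives r = 0.71 in small tumours and a looser cloud in large tumours.

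Other genes of the pathways were counted from lists, here for large tumours against liver tissue. Of all genes tested 38.5% rose and 32.1% fell in that comparison, so being called says little by itself, here and in the lists below. Of 17 tested NRF2 targets outside the conjugation genes 9 rose and 4 fell (median difference 0.95). Slc7a11, the cystine importer that feeds glutathione synthesis, rose by 4.84 ± 0.80, from a median of 0.772 to 26.2 CPM (adjusted p = 3.13e-07, edgeR). Srxn1 (sulfiredoxin) rose by 2.04 ± 0.25 and Abcc4, which exports conjugates, by 1.97 ± 0.36. Nqo1, used above, rose by 1.10 ± 0.25, while Hmox1 fell by 0.81 ± 0.14. Among 14 glutathione synthesis and recycling genes 5 rose and 7 fell, with Ggt6 and Ggt5, of the gamma-glutamyltransferase family, falling by 1.78 ± 0.23 and 1.35 ± 0.20. The subunits of the rate-limiting ligase parted: catalytic Gclc rose by 1.18 ± 0.21 and modifier Gclm fell by 0.65 ± 0.08 (adjusted p = 1.06e-06 and 4.26e-10, edgeR). Of 7 glutathione peroxidases 4 rose and 1 fell. The one that fell was Gpx1, by 2.35 ± 0.18 from a median of 1884 to 310.5 CPM (adjusted p = 3.14e-17, edgeR), and Gpx2 rose by 2.50 ± 0.74.

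Cofactor genes moved in both directions. Of 5 genes of UDP-glucuronate supply and glucuronide hydrolysis 2 rose and 1 fell, with Ugp2, which makes UDP-glucose, rising by 0.69 ± 0.16. Ugdh, which makes UDP-glucuronate, did not pass at 0.05 ± 0.20. Of 8 sulfate activation and hydrolysis genes 4 rose and 3 fell, and the sulfate transporter gene Slc26a2 rose by 1.27 ± 0.11. Both synthases of the sulfate donor changed, Papss1 rising by 0.67 ± 0.08 and Papss2 falling by 0.97 ± 0.14 (adjusted p = 2.53e-10 and 7.74e-09, edgeR). Among 7 exporters of conjugates 4 rose and 2 fell. Abcc5 rose by 1.81 ± 0.21 and Abcc6 fell by 0.95 ± 0.12. Of 8 tested relatives of the transferases outside the symbol rule 2 rose and 4 fell, and Ugt3a1 and Ugt3a2 fell by 3.32 ± 0.30 and 2.27 ± 0.27. Nqo1, Hmox1, Gclc, Gclm, Ugdh and Papss1 were named for their roles after their values were seen.

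Of 16 transcription factors that act on such genes 3 rose and 10 fell in large tumours, beside 38.5% and 32.1% of all genes. Nr1i3, which codes for the constitutive androstane receptor (CAR), had medians of 238, 69.6 and 33.7 CPM in liver tissue, small and large tumours and fell by 3.33 ± 0.37 in large tumours (adjusted p = 4.85e-12, edgeR). Nr1h4, for the bile acid receptor, fell by 1.43 ± 0.12 and the small Maf gene Maff rose by 2.29 ± 0.17. Nfe2l2, which codes for NRF2, rose by 0.45 ± 0.09 and Hnf4a did not pass at -0.08 ± 0.06, both named after their values were seen. Of 6 tested marker targets of the receptors AHR, CAR and PXR 3 rose and 2 fell, Cyp1a2 falling by 2.13 ± 0.55 and Cyp3a11 by 2.00 ± 0.45. Of 14 pericentral genes none rose and 11 fell in large tumours, Cyp2e1 by 4.31 ± 0.67 and Glul, used above, by 3.10 ± 0.61. In small tumours all 14 fell, beside 31% of all genes. Of 12 genes predominant in male liver 1 rose and 9 fell in large tumours, and 7 fell from small to large tumours, among them Hsd3b5 by 2.20 ± 0.46 (adjusted p = 0.00753, edgeR). Of 11 genes predominant in female liver 2 rose and 6 fell in large tumours, and 2 fell from small to large tumours. From small to large tumours 1.55% of all genes fell.

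Markers of cell types moved with the tumours too, and their part in the results was not tested. Beside the counts given here, 38.5% of all genes rose and 32.1% fell in large tumours, and 1.55% fell from small to large tumours. The summed hepatocyte markers were 56110, 79870 and 126600 CPM in liver tissue, 113100, 207400 and 253300 CPM in small tumours and 120100, 187300 and 243000 CPM in large tumours, and of 8 of them 4 rose and 3 fell in large tumours. The sum is led by Alb, which rose by 1.30 ± 0.12. All 7 Kupffer cell markers fell in both tumour groups, with sums of 620.1, 958 and 1250 CPM in liver tissue and 94.0, 302 and 630.4 CPM in large tumours, and 5 of 7 fell from small to large tumours. Cholangiocyte markers summed to 78.9, 153 and 581 CPM in liver tissue and 39.7, 1077 and 6204 CPM in large tumours. Of the 7 only Sox9 and Spp1 rose, and the keratin genes Krt19 (-0.85 ± 0.43) and Krt7 (-0.36 ± 0.41) did not pass. All 5 T cell markers rose in large tumours, with sums of 1.67, 3.62 and 18.1 CPM in liver tissue and 2.46, 5.65 and 37.8 CPM there. Of 7 stellate cell and fibroblast markers 4 rose and 1 fell in large tumours, of 6 endothelial markers 2 rose and 2 fell, and of 5 tested neutrophil markers only Ngp fell. All 3 B cell markers fell and all 5 proliferation markers rose. Of 5 tested intestinal markers Vil1, Krt20 and Cdh17 rose from under 1 CPM and Fabp2 and Lgals4 fell, and Cdx2 had too few counts to test.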

How the data were processed

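The authors deposited raw counts per gene for 199 libraries in 1 table, of which the 65 tissue and tumour libraries were tested. The submitters' processing notes name HTSeq 0.11.2, HISAT2 2.1.0, FastQC 0.11.8 and Trim Galore 0.6.4, with build GRCm38. Strand setting and annotation are not given in the sources used here, which leaves overlapping genes uncertain. HTSeq's 5 summary entries (55.9% of tissue entries) were left out. A median of 49.6% of entries aligned to more than 1 place, and such reads were not counted for a gene, which bears on near-copies.

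Genes with enough counts (filterByExpr, minimum 10 and total 15) were fitted with edgeR 4.0.16 in R 4.3.3, all 65 libraries together, with TMM factors, group and library-name set. On simulated counts for large tumours against liver tissue over 14483 genes, 90% of 2-fold and 99% of 4-fold changes were recovered and 5.03% of calls were false. Only 200 genes were changed in the simulation, and its libraries were independent and without a set effect. In the data 70.5% of genes were called and tumours may share a mouse, so these shares need not hold for them. Libraries of a group differed by more than sampling noise (lowest chi-square per degree of freedom 2.91). A count of 0 allows up to 3 counts, 0.14 to 0.25 CPM, which covers counting error only. Unique windows of 36 bases, the length of each read of a pair per the labels, were found in GENCODE transcripts of GRCm38, without use of the pairing of reads. RefSeq promoters matched 54 of 61 genes by symbol. The 11 spellings searched were TGACNNNGC, TGANNNNGC, CAAAGTCCA, 6 forms of all or part of the HNF1 palindrome and 1 each of the HNF4A and nuclear receptor repeat sites. Figures were drawn with matplotlib 3.10.9.

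All 61 genes could be named. Full statistics went to the most abundant member of each class and up to 3 called members with the largest change, and up to 3 genes were named per list. The members and lists were chosen with earlier results of these data known. Alternatives were RLE and upper-quartile factors, library sizes alone, DESeq2 1.42.0, no filter, a 2-fold minimum, no set term, each set left out and replicate numbers as a block. Leaving out libraries over 10 CPM of S100a8, large tumours 16 to 20, liver tissue 1 to 3 and small tumour 21 was chosen after seeing the data.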

Additional observations from a re-analysis of the deposited data

Results flagged for a closer look

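The 5 genes with a difference between large and small tumours (log2, large minus small, edgeR) were Sult2a7 (-2.10), Sult1e1 (-1.97), Sult2a8 (-1.74), Ugt2b37 (-1.26) and Ugt2b1 (-0.73).

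The sorted blood cells of the series, which enter no comparison above, held 3 conjugation genes with a median above every tissue and tumour library. These CPM are per library total, tissue and sorted cells were made with different library kits, and no test was run between them. Each median pools treatments. The neutrophils came from DEN ALIOS mice left untreated or on vehicle, or given aPD1, CXCR2i or both, and the T cells also from mice given PBS or CXCR2i without DEN ALIOS. Ugt1a7c had a median of 131 CPM in 32 libraries of blood neutrophils (91.2 to 176) and 0.364 CPM in 37 of blood T cells, beside 0.538 CPM in liver tissue and at most 2.69 CPM in a small and 1.30 CPM in a large tumour. Ugt1a2 had a median of 3.57 CPM in blood neutrophils and 0 CPM in blood T cells, beside 0.0793 CPM in liver tissue. Mgst2, too low to test in tissue at a median of 0.147 CPM, had 27.3 CPM in blood T cells (14.8 to 50.4) and 4.80 CPM in blood neutrophils. Both Ugt1a genes share 3' exons with the rest of their cluster. The other Ugt1a genes that start downstream of Ugt1a7c, within its annotated span, also had counts in blood neutrophils. Their medians there were 7.35 CPM for Ugt1a6b, 14.2 for Ugt1a6a, 9.97 for Ugt1a5 and 3.33 for Ugt1a1. Ugt1a10, Ugt1a9 and Ugt1a8, which start upstream of Ugt1a7c, had a median of 0 CPM. Whether the Ugt1a2 counts are separate from transcripts of Ugt1a7c was not tested.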

How the results depend on the processing

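Requiring a change beyond 2-fold left 20 conjugation genes in large tumours, 14 in small tumours and 0 between large and small tumours. Between large and small tumours the count was 5, and 0 without set 1, 1 without set 2, 3 with a replicate block and the set, and 12 without large tumours 16 to 20. Under the other alternatives it was 4 to 7. Counts against liver tissue stayed between 34 and 40 in large and between 31 and 40 in small tumours under all alternatives but the 2-fold minimum. Of those called, 30 of 39 and 28 of 36 passed under every one of these, and no difference reversed. In large tumours Gsta2, Gsta4, Gstm1, Gstm3, Gstm4, Gstp3, Gstt1, Gstt2 and Ugt1a6b were lost under at least 1. In small tumours Gsta2, Gstm2, Gstm7, Gstp3, Gstt2, Mgst3, Sult1e1 and Ugt1a6b were. Of the 17 correlations that passed in large tumours 8 did so with set means removed, and in small tumours 8 of 11. The cause of these changes was not tested.

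No pairing by replicate number was seen, although this cannot show that same-numbered libraries come from different mice. Same-numbered libraries had a median correlation of deviations of -0.015 over 55 pairs, and others -0.003. With a replicate block but no set, 37, 36 and 6 genes were called in large tumours, in small tumours and between them, of which 34, 34 and 4 were also called without the block.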

Other observations

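Conjugation genes also divided the sorted cells of the series, described here as median CPM per library total with no test. As above, each cell type pools libraries of all its treatments, which for T cells include mice without DEN ALIOS. Mgst1 had 73.1 CPM in blood neutrophils and 59.2 CPM in 29 libraries of liver neutrophils, and 0.282 and 0.729 CPM in blood and liver T cells. Mgst2 had its higher level in T cells, with 19.8 CPM in 36 libraries of liver T cells and 7.54 CPM in liver neutrophils. Gstp3 had 20.4 CPM in blood T cells and 3.51 CPM in blood neutrophils, beside 16.9 CPM in liver tissue. Ugt1a7c had 70.8 CPM in liver neutrophils and 0.614 CPM in liver T cells.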
